A study of Mus musculus with 48 samples.

Results

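The 7 genes described here make and carry mucosal immunoglobulin A: *Pigr*, *Ccl28*, *Jchain*, *Igha*, *Tnfsf13*, *Tnfsf13b* and *Mzb1*. They were taken by symbol (GENCODE vM21) from the 55401 genes of a count table of mouse colon, and all 7 were found. Bulk colon RNA was sequenced from male C57BL/6J mice aged 18 to 20 weeks, killed in the 2nd day of darkness at 6 circadian times (CT1, CT5, CT9, CT13, CT17 and CT21, each 4 h apart), with 4 mice of each genotype at each time. Control mice (Bmal1fl/fl in the labels) carried the floxed *Bmal1* gene on both alleles without Cre. Their littermates, Bmal1 IEC-/- mice (Bmal1iec-/- in the labels), carried the same floxed alleles with a Villin-driven Cre, which deletes the core clock gene *Bmal1* in intestinal epithelial cells and leaves it in the other cells of the colon. No mouse without floxed alleles or with Cre alone was analysed here. The comparison asks how these genes differ when the epithelial clock is absent, and how they follow circadian time in each genotype.

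Immunoglobulin A is the main antibody of the gut. Plasma cells in the lamina propria secrete it as dimers of heavy chains (*Igha*) and light chains joined by the J chain (*Jchain*). The polymeric immunoglobulin receptor, encoded by *Pigr* in epithelial cells, binds these dimers at the basolateral side and carries them into the lumen. The epithelial chemokine CCL28 attracts IgA plasma cells through CCR10, and the cytokines APRIL (*Tnfsf13*) and BAFF (*Tnfsf13b*) sustain B cells and plasma cells. MZB1 is a chaperone of the endoplasmic reticulum that assists the folding and secretion of antibody.

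The promoters of the members whose levels differed most between genotypes, *Pigr* and *Ccl28*, and that of *Jchain*, the plasma cell gene beside them, are shown because BMAL1 acts through DNA elements near gene starts. RefSeq promoter sequences, 250 bases before to 50 after an annotated start on GRCm38.p6, were held for 5 of the 7 members. They were searched on both strands for CACGTG, the E-box bound by BMAL1 with CLOCK and also by USF factors, for its variant CACGTT, for AGGTCA, the core of the element bound by ROR and REV-ERB receptors, and for TTATGTAA, a D-box. Each runs 5′ to 3′ on the strand of its gene, with matches in capitals.

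*Pigr*, chr1:130826434-130826733, plus strand: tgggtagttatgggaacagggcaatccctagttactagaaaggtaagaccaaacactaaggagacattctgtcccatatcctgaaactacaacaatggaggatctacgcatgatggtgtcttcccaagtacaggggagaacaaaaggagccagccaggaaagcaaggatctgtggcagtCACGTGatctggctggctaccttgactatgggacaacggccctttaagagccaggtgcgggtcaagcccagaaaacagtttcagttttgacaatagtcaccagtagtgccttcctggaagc

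*Ccl28*, chr13:119623569-119623868, plus strand: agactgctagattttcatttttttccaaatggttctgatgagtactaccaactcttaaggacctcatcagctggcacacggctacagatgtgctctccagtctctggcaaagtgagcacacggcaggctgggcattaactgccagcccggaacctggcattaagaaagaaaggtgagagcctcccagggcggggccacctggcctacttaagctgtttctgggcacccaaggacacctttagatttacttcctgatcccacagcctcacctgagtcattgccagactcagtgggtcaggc

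*Jchain*, chr5:88527848-88528147, minus strand: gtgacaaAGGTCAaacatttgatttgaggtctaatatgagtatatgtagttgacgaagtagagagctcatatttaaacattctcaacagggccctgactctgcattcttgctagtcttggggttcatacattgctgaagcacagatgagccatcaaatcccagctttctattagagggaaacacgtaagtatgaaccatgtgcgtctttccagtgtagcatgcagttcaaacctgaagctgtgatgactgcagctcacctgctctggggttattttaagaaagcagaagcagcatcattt

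The *Pigr* window held 1 CACGTG whose first base lay at position -71 from the start. The *Jchain* window held 1 AGGTCA at -243, and the windows of *Ccl28*, *Tnfsf13* and *Tnfsf13b* held none of these letters. Over 32817 promoters of the same length, CACGTG was present in 7.15%, CACGTT in 4.69%, AGGTCA in 16.3% and TTATGTAA in 0.935%. A match describes the sequence and does not show that a factor binds there.

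Each mouse had between 3144997 and 4785844 counts in total. The comparisons use 46 mice (24 control, 22 Bmal1 IEC-/-) and leave out a pair of Bmal1 IEC-/- mice of CT1, SV384 and SV385, for the reason given with the processing. Calls at CT1 changed greatly with this pair. At CT1, 218 of 14475 genes differed between genotypes without them and 3593 of 14259 with them (adjusted p under 0.05). In SV385 the summed level of 5 smooth muscle markers was 886 CPM (counts scaled to a common library total, edgeR's cpm), against at least 3127 CPM in each of the 46 mice. Results are given over the 46 mice, and with all 48 where a call on a gene named below changed. *Arntl*, the symbol of *Bmal1*, did not pass the test over all times (log2 fold change 0.32, standard error (SE) 0.17, adjusted p = 0.241), and its course over the day was wider in control mice. Control means rose and fell between 67.5 ± 4.47 CPM at CT1 and 6.91 ± 2.30 CPM at CT9 (SD, n = 4 each), and Bmal1 IEC-/- means lay between 45.6 ± 1.82 CPM at CT1 (SD, n = 2) and 29.5 ± 7.83 CPM at CT9 (SD, n = 4). Its count takes in reads from all exons and from cells without the deletion. *Nr1d1* (REV-ERBα), a direct target of BMAL1, fell by 1.48 on the log2 scale (SE 0.12, adjusted p = 2.39e-13).

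The members lay at very different levels. Per kilobase of exon, the control means were 798 ± 113 CPM per kb (SD, n = 24) for *Pigr*, 452 ± 154 for *Igha*, 124 ± 43.4 for *Jchain*, 16.2 ± 4.71 for *Ccl28*, 4.54 ± 1.08 for *Tnfsf13*, 1.61 ± 0.326 for *Tnfsf13b* and 0.324 ± 0.248 for *Mzb1*. The order was the same in Bmal1 IEC-/- mice, where *Pigr* had 1079 ± 100.5 CPM per kb (SD, n = 22) and *Igha* 546 ± 178. Each pair of neighbours in this order was separated by more than the larger of its SDs in control mice. The lengths take in exon bases shared with other genes, 983 of 1637 for *Tnfsf13* and 695 of 1215 for *Mzb1*. Their values per kilobase may therefore be too low. *Tnfsf13* rests on 18 to 41 counts and *Tnfsf13b* on 17 to 63 counts per mouse over the 46 mice, so that their precision is limited by depth. Of the 7 members, 6 passed the filter on low counts, and *Mzb1* did not.

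Of the 6 members tested, 2 were higher in Bmal1 IEC-/- mice, both of them products of epithelial cells: the receptor gene *Pigr* and the chemokine gene *Ccl28*. Over all 14475 genes, 11.1% were called in either direction and 5.44% were called higher. The remaining 4, the plasma cell genes *Igha* and *Jchain* and the cytokine genes *Tnfsf13* and *Tnfsf13b*, did not pass the test.

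*Pigr* (ENSMUSG00000026417, GRCm38 chromosome 1, 130826684 to 130852249, plus strand) had 8694 to 21483 counts per mouse. Its level had a lowest, median and highest value of 2462, 3164 and 4001 CPM in control mice and of 3564, 4379 and 5099 CPM in Bmal1 IEC-/- mice. All times together, 18 of 22 Bmal1 IEC-/- mice lay above the highest control. The mean was 3212 ± 455 CPM (SD, n = 24) in control and 4341 ± 404 CPM (SD, n = 22) in Bmal1 IEC-/- mice, a 1.38-fold difference with an approximate 95% interval of 1.32 to 1.45 (log2 fold change 0.47, SE 0.03, adjusted p = 6.12e-15, edgeR's quasi-likelihood test, Benjamini-Hochberg adjusted over 14475 genes). It thus rose beyond the spread between mice while staying under a fold change of 1.5.

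At 6 of 6 times the Bmal1 IEC-/- mean of *Pigr* exceeded the control mean, as did that of *Ccl28*, and 6.21% of the genes tested showed this. At CT1 control mice had 3572, 3622, 3919 and 4001 CPM and Bmal1 IEC-/- mice 4387 and 4611 CPM. Both mice outside the 46 were higher still, SV384 at 4859 CPM and SV385 at 6091 CPM. The summed level of 8 epithelial markers was 11476.5 CPM in SV384 and 15211.6 CPM in SV385, against at most 12020.4 CPM in the 46 mice. At CT5 the controls had 3497, 3623, 3694 and 3789.5 CPM and the Bmal1 IEC-/- mice 4525, 4650.4, 4669.9 and 4911 CPM. At CT9 the values were 2901, 3079, 3098 and 3229.9 CPM against 3764, 4020.2, 4284 and 4964 CPM. The lowest Bmal1 IEC-/- mouse stood above the highest control at these 3 times. At CT13, the trough of the controls, they had 2462, 2591, 2669.7 and 2764 CPM against 3564, 3976, 4089 and 4373 CPM. At CT17 the controls had 2838, 2845, 2879 and 3019.6 CPM and the Bmal1 IEC-/- mice 3673, 4117, 4124 and 4518 CPM. At CT21 the controls had 2695, 3256, 3337 and 3705 CPM and the Bmal1 IEC-/- mice 4343, 4385, 4461 and 5099 CPM. Hence no mouse of either genotype overlapped with the other genotype of its own time at 6 of 6 times, a separation upwards that 0.104% of the genes tested showed.

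Tested time by time, *Pigr* passed at 5 of 6 times, with log2 fold changes of 0.37 at CT5 (adjusted p = 0.00836), 0.48 at CT9 (adjusted p = 4.10e-05), 0.61 at CT13 (adjusted p = 3.80e-07), 0.51 at CT17 (adjusted p = 2.71e-05) and 0.49 at CT21 (adjusted p = 9.24e-05), each with an SE of 0.08. Of all genes tested, 0.456%, 1.82%, 4.72%, 1.11% and 0.394% were called at these times in turn, and 0.311%, 0.94%, 2.26%, 0.394% and 0.187% were called higher. At CT1, with 2 Bmal1 IEC-/- mice, the log2 fold change was 0.26 (SE 0.09, adjusted p = 0.13), where 1.51% of all genes were called and 0.843% were called higher. With all 4 mice at CT1 the log2 fold change there was 0.40 (adjusted p = 0.00112), where 3593 of 14259 genes were called and 1970 were called higher. Without control replicate SV442 the adjusted p at CT5 was 0.0546.

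**Figure D1:**
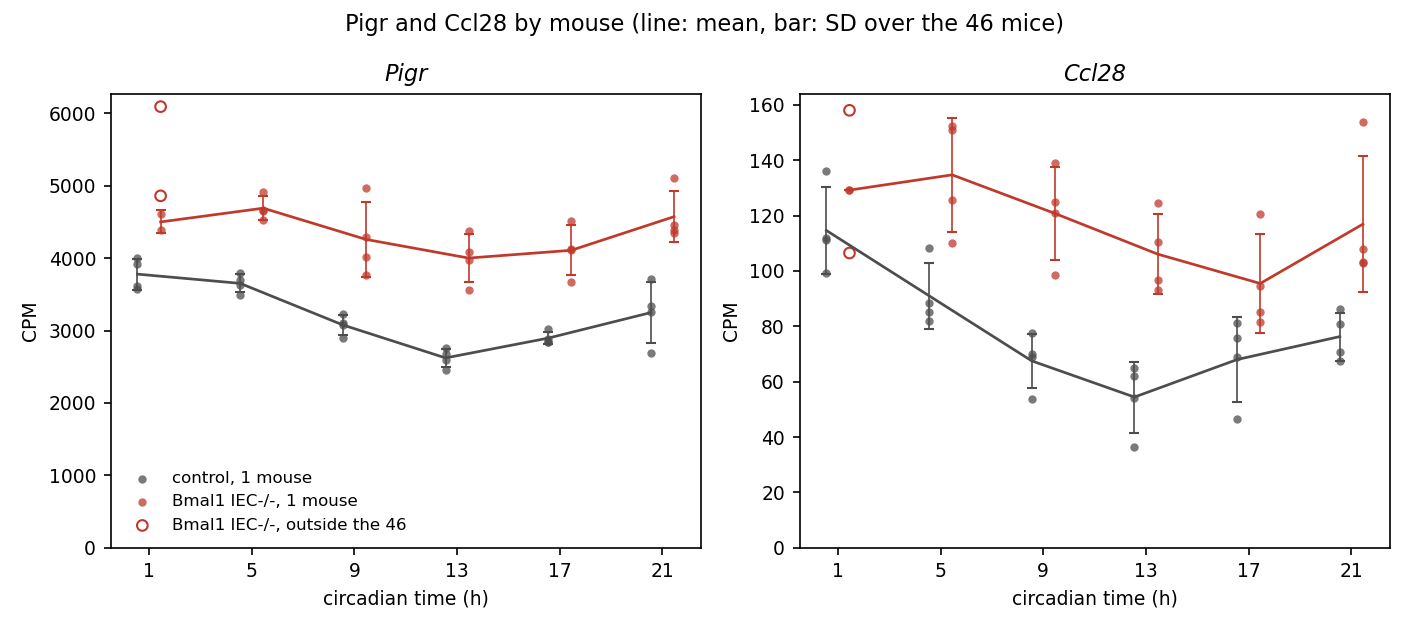
*Pigr* (left) and *Ccl28* (right) in CPM against circadian time in hours. Each point is 1 mouse, control in grey and Bmal1 IEC-/- in red, open circles are the 2 mice outside the 46, and lines and bars give the mean and SD over the 46 mice (n = 4, or 2 for Bmal1 IEC-/- at CT1). The red points lie above the grey points of the same time for *Pigr* at 6 of 6 times and for *Ccl28* at 5 of 6, and the fold change is highest at CT13 for both.

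*Ccl28* (ENSMUSG00000074715, GRCm38 chromosome 13, 119623819 to 119654359, plus strand), whose product draws IgA plasma cells to the mucosa, had 129 to 577 counts per mouse. Its lowest, median and highest values were 36.5, 76.5 and 136 CPM in control mice and 81.5, 116 and 154 CPM in Bmal1 IEC-/- mice. Only 4 of 22 Bmal1 IEC-/- mice exceeded the highest control, a mouse of CT1, so the genotypes overlapped unless compared at the same time. The mean was 78.7 ± 22.8 CPM (SD, n = 24) in control and 116 ± 21.2 CPM (SD, n = 22) in Bmal1 IEC-/- mice, a 1.55-fold difference with an approximate 95% interval of 1.41 to 1.71 (log2 fold change 0.64, SE 0.07, adjusted p = 4.63e-09, edgeR). With a fold change of 1.5 required as well, *Ccl28* was the member called, against 0.67% of all genes called higher.

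At CT1 the genotypes overlapped for *Ccl28*, with 99.2, 111.2, 111.9 and 136 CPM in control and 129.1 and 129.3 CPM in Bmal1 IEC-/- mice, and the 2 mice outside the 46 had 106 and 158 CPM. At CT5 the controls had 82.1, 85.2, 88.5 and 108 CPM and the Bmal1 IEC-/- mice 109.9, 126, 151 and 152 CPM. At CT9 the controls had 53.8, 68.8, 70.0 and 77.4 CPM and the Bmal1 IEC-/- mice 98.5, 121, 125 and 139 CPM. The gap was thus wide at CT9 and narrow at CT5. At CT13 the controls reached their lowest values, 36.5, 54.1, 62.2 and 65.0 CPM, against 93.0, 96.6, 110.3 and 125 CPM. At CT17 the values were 46.4, 68.9, 75.7 and 81.1 CPM against 81.5, 85.1, 94.6 and 121 CPM, so that the nearest mice of each genotype almost met. At CT21 they were 67.6, 70.7, 80.8 and 86.1 CPM against 102.9, 103.3, 107.9 and 154 CPM. The genotypes did not overlap at 5 of 6 times, and 0.249% of the genes tested were separated upwards at 5 or more times.

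*Ccl28* passed the test at CT9 (1.81-fold, adjusted p = 0.000595) and CT13 (1.95-fold, adjusted p = 9.57e-05). At CT5, CT17 and CT21 the folds were 1.48, 1.41 and 1.53 with adjusted p of 0.125, 0.168 and 0.0687, and at CT1 1.14 with an adjusted p of 0.665 (edgeR). The value at CT21 crossed the threshold without control replicate SV424 at CT13 or SV438 at CT17, with a lowest adjusted p of 0.0402.

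Whether the genotype difference depended on the part of the day was tested as the interaction of genotype with day (CT1, CT5 and CT9) and night (CT13, CT17 and CT21). No member passed (0 of 6 in edgeR, and 0 of 6 in DESeq2's Wald test), where 0.0691% of all genes did. At an unadjusted p under 0.05 there was 1 of 6 in edgeR, *Tnfsf13*, and 2 of 6 in DESeq2. The share of all genes at that threshold was not computed. The genotype difference at night minus that by day was 0.17 on the log2 scale for *Pigr* (SE 0.09, adjusted p = 0.564, edgeR) and 0.18 for *Ccl28* (SE 0.17, adjusted p = 0.801, edgeR).

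Markers of cell types moved with genotype beside *Pigr* and *Ccl28*, where 11.1% of all genes tested were called. Only *Clca1* and *Slc26a3*, given below, moved by more than *Pigr*, and both fell. Of 8 epithelial markers, Bmal1 IEC-/- mice had 3 higher and 1 lower, with a median log2 fold change of 0.10 against 0.00 over all genes tested, and their summed level ranged from 7708 to 11178 CPM in control and from 9112 to 12020.4 CPM in Bmal1 IEC-/- mice. Among them *Lgals4* (galectin-4) rose by 0.16, *Cdh1* (E-cadherin) by 0.12 and *Krt8* (keratin-8) by 0.16, while *Epcam* fell by 0.10. Of 5 smooth muscle markers 2 were lower, *Cnn1* (calponin), which fell by 0.23, and *Myh11* (smooth muscle myosin heavy chain), which fell by 0.16. Their median log2 fold change was -0.18, and their summed level ranged from 3518 to 5629.5 CPM in control and from 3127 to 5255 CPM in Bmal1 IEC-/- mice. The median was -0.17 over 4 endothelial markers, of which *Kdr* and *Pecam1* were lower, and -0.13 over 5 fibroblast markers, of which *Dcn* was lower. Over all 48 mice *Epcam* and *Myh11* were not called and *Krt19* (keratin-19) was called (adjusted p = 0.0441, edgeR), so that 4 epithelial markers were higher and 0 lower. With the summed epithelial level of each mouse as a further term, a model chosen after seeing the data, the log2 fold change was 0.46 for *Pigr* (adjusted p = 2.45e-13) and 0.70 for *Ccl28* (adjusted p = 2.44e-09), and with the smooth muscle level 0.51 (adjusted p = 4.99e-15) and 0.59 (adjusted p = 1.04e-06). In bulk colon, more cells of a type and more RNA per cell cannot be told apart.

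Goblet cell markers moved both ways. Of 6, *Spink4* rose by 0.33 on the log2 scale and *Fcgbp* by 0.19, while *Clca1* fell by 0.62, from 1628 ± 258 CPM (SD, n = 24) to 1066 ± 357 CPM (SD, n = 22), and *Tff3* by 0.18, the last of these not called over all 48 mice. *Slc26a3*, the chloride-bicarbonate exchanger of surface colonocytes, fell by 0.77 (SE 0.08, adjusted p = 1.38e-09, edgeR), from 236 ± 48.8 CPM (SD, n = 24) to 137 ± 39.4 CPM (SD, n = 22), and the other 3 colon markers tested were not called. Pancreatic markers had summed levels of 0 to 0.544 CPM, and the defining genes of follicular B cells, summed, of 0.485 to 18.3 CPM, with none of the 8 passing the filter.

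*Igha* (ENSMUSG00000095079, GRCm38 chromosome 12, 113254830 to 113260236, minus strand), the constant region of the IgA heavy chain, had 1559 to 10188 counts per mouse. Its lowest, median and highest values were 475, 1119 and 2235 CPM in control mice and 651, 1399 and 2368 CPM in Bmal1 IEC-/- mice. The genotypes overlapped at 6 of 6 times, with a higher Bmal1 IEC-/- mean at 5 of them. The mean was 1207 ± 410 CPM (SD, n = 24) in control and 1456 ± 474 CPM (SD, n = 22) in Bmal1 IEC-/- mice, a ratio of 1.19 with an approximate 95% interval of 1.02 to 1.397 (log2 fold change 0.25, SE 0.12, p = 0.0373), which did not pass the adjustment over all genes (adjusted p = 0.172, edgeR). At CT1 its log2 fold change was 0.60 over the 46 mice (SE 0.34, adjusted p = 0.378) and 0.78 over all 48 (SE 0.29, adjusted p = 0.0428, edgeR), where *Igha* passed. In that comparison over all 48 mice, 3593 of 14259 genes were called at CT1, 1970 of them higher.

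*Jchain* (ENSMUSG00000067149, GRCm38 chromosome 5, 88519809 to 88527891, minus strand), which joins IgA into dimers, had the same pattern. It had 152, 288 and 534 CPM as the lowest, median and highest control values and 167, 373 and 614 CPM in Bmal1 IEC-/- mice, with overlap at 6 of 6 times. Its mean was 313 ± 109 CPM (SD, n = 24) in control and 379 ± 98.4 CPM (SD, n = 22) in Bmal1 IEC-/- mice, a ratio of 1.21 with an approximate 95% interval of 1.03 to 1.42 (log2 fold change 0.27, SE 0.12, p = 0.0263, adjusted p = 0.139, edgeR). Without the filter on low counts the adjusted p was 0.0096 for *Jchain* and 0.0212 for *Igha*, so the call on these 2 genes depended on the filter.

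The light chain gene *Igkc* followed the same course, with 757 ± 276 CPM (SD, n = 24) in control and 881 ± 256 CPM (SD, n = 22) in Bmal1 IEC-/- mice (log2 fold change 0.21, SE 0.12, adjusted p = 0.282, edgeR). *Ighm*, of the IgM heavy chain, had 17.6 ± 5.96 CPM (SD, n = 24) and 15.6 ± 6.33 CPM (SD, n = 22), with a log2 fold change of -0.19 (SE 0.13, adjusted p = 0.403, edgeR). All 268 immunoglobulin genes together held 0.293% of the counts of the median control mouse and 0.353% of those of the median Bmal1 IEC-/- mouse. *Igha* made up a median of 39.6% of these immunoglobulin counts in either genotype. Of the 7 constant regions tested beside *Igha*, these included, 1 was called: *Ighg1*, of IgG1, which fell by 1.02 on the log2 scale (SE 0.29, adjusted p = 0.0137, edgeR), from 11.2 ± 8.86 CPM (SD, n = 24) to 5.66 ± 3.86 CPM (SD, n = 22). Over all 48 mice its adjusted p was 0.0616. Immunoglobulin genes are similar to each other, and how the counting divided their reads is uncertain.

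**Figure D2:**
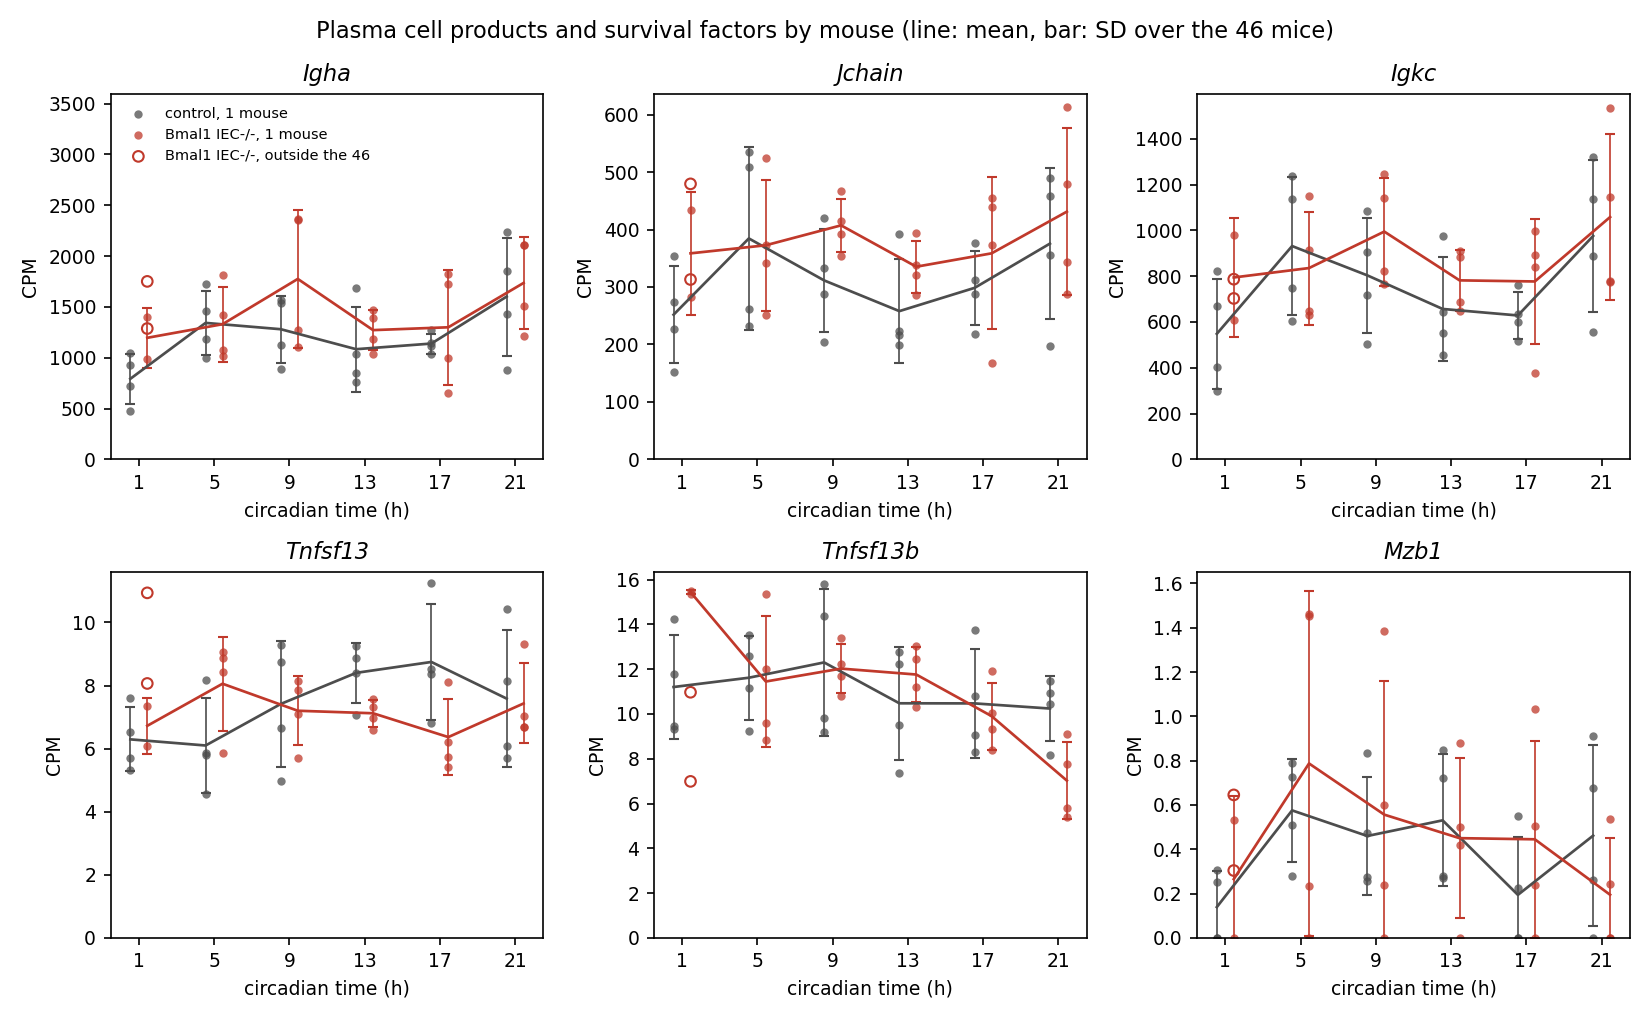
*Igha*, *Jchain*, *Igkc*, *Tnfsf13*, *Tnfsf13b* and *Mzb1* in CPM against circadian time in hours, each panel from 0 on its own scale (bars of *Mzb1* that pass below 0 are not drawn further). Each point is 1 mouse, control in grey and Bmal1 IEC-/- in red, open circles are the 2 mice outside the 46, and lines and bars give the mean and SD over the 46 mice (n = 4, or 2 for Bmal1 IEC-/- at CT1). The genotypes overlap in each panel at all times, except for *Tnfsf13b* at CT1 over the 46 mice.

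*Tnfsf13b* (BAFF; ENSMUSG00000031497, GRCm38 chromosome 8, 10006467 to 10039072, plus strand) had 11.1 ± 2.24 CPM (SD, n = 24) in control and 10.9 ± 2.80 CPM (SD, n = 22) in Bmal1 IEC-/- mice, a ratio of 0.991 with an approximate 95% interval of 0.879 to 1.12 (adjusted p = 0.956, edgeR). At CT1 the controls had 9.33, 9.45, 11.8 and 14.2 CPM and both Bmal1 IEC-/- mice of the 46 lay above them, at 15.4 and 15.5 CPM, a separation found at 1 or more times for 24.5% of the genes tested. The mice outside the 46 fell below that, at 6.99 and 10.97 CPM, so this separation was absent with all 48. At CT21 the Bmal1 IEC-/- mice had 5.41, 5.82, 7.76 and 9.10 CPM and the controls 8.15, 10.4, 10.9 and 11.5 CPM (ratio 0.689, adjusted p = 0.409, edgeR).

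*Tnfsf13* (APRIL; ENSMUSG00000089669, GRCm38 chromosome 11, 69682846 to 69685784, minus strand) had 7.42 ± 1.77 CPM (SD, n = 24) in control and 7.19 ± 1.14 CPM (SD, n = 22) in Bmal1 IEC-/- mice, a ratio of 0.965 with an approximate 95% interval of 0.853 to 1.09 (adjusted p = 0.791, edgeR). The values of both genotypes overlapped at 6 of 6 times. Of its 1637 exon bases, 983 are shared with the readthrough gene *Tnfsfm13* and 221 with the antisense gene *Tnfsf13os*. Reads that fall on several features were not counted, which would leave part of its exons.

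*Mzb1* (ENSMUSG00000024353, GRCm38 chromosome 18, 35647267 to 35649367, minus strand) had 0 to 6 counts per mouse. Over the 46 mice its counts summed to 37 in controls and to 41 in Bmal1 IEC-/- mice, with 0 counts in 5 of 24 and 7 of 22 mice. It failed the filter on low counts and was not tested with the other members. Without the filter its log2 fold change was 0.16 with an SE of 0.36 (adjusted p = 0.868, edgeR). Of its 1215 exon bases, 695 overlap the annotated gene *SPATA24* on the same strand, and reads there would not be counted.

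**Figure D3:**
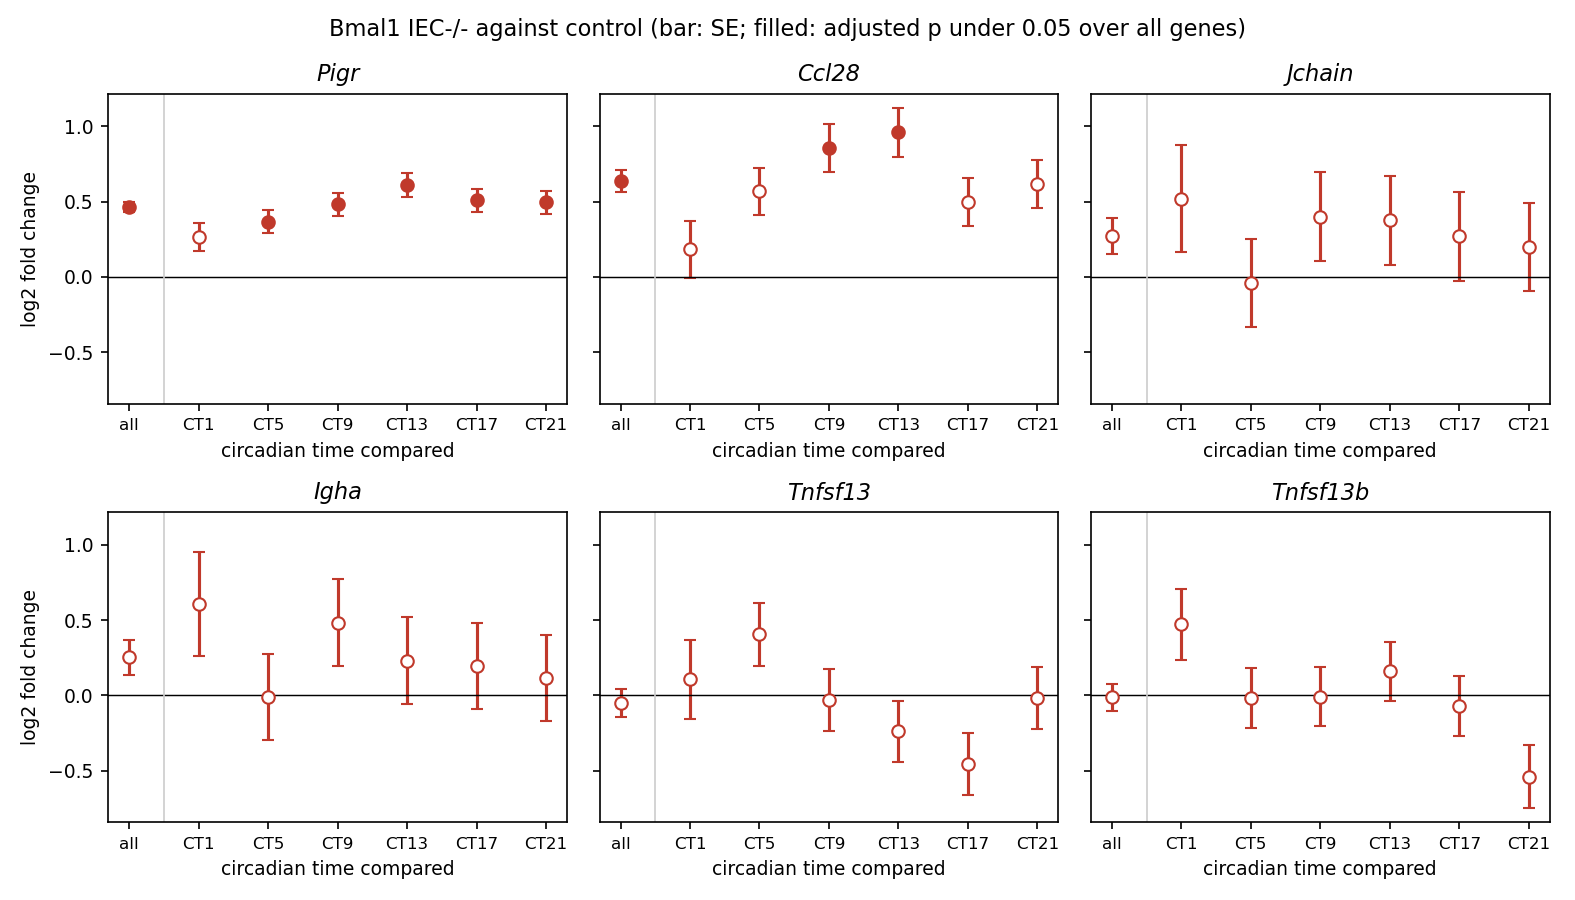
Log2 fold change between Bmal1 IEC-/- and control mice for the 6 members tested, over all times and at each circadian time. Points are edgeR estimates, bars are standard errors, and filled points have an adjusted p under 0.05 over all genes. *Pigr* is filled over all times and at 5 of 6 times, *Ccl28* over all times and at CT9 and CT13, and the other 4 genes at none.

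In control mice *Pigr* and *Ccl28* followed circadian time, both highest soon after the start of the subjective day. The mean of *Pigr* fell from 3778 ± 214 CPM (SD, n = 4) at CT1 to 2622 ± 128 CPM (SD, n = 4) at CT13, and that of *Ccl28* from 115 ± 15.5 CPM to 54.4 ± 12.8 CPM (SD, n = 4 each). JTK_cycle, a rank test for a 24-h rhythm with p adjusted over 12 phases, gave 1.06e-07 for *Pigr* and 3.03e-06 for *Ccl28* (exact test), with a peak at CT2 for both. *Tnfsf13* was also called (exact p = 0.0302), with a peak at CT14. These are 3 of 7 members, where 24.1% of the 32471 genes with reads were called. The call for *Tnfsf13* was lost without control replicate SV396 or SV421 at CT13 or SV468 or SV469 at CT1, with a highest p of 0.0674 (exact test), and its Benjamini-Hochberg q over all genes was 0.141. A test of any difference between times, on 5 degrees of freedom in edgeR, passed for *Pigr* (adjusted p = 1.14e-06) and *Ccl28* (adjusted p = 1.05e-05), 2 of 6 members, where 45.5% of all genes passed. A 24-h cosine fitted in edgeR called *Pigr*, *Ccl28* and *Tnfsf13*, 3 of 6, where 49.8% of all genes were called.

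In Bmal1 IEC-/- mice the means of both genes covered a narrower range over time. The highest and lowest means of *Pigr* were 4689 ± 161 CPM at CT5 and 4000.4 ± 336 CPM at CT13 (SD, n = 4 each), a ratio of 1.17 against 1.44 in control mice. Those of *Ccl28* were 135 ± 20.5 CPM at CT5 and 95.5 ± 17.7 CPM at CT17 (SD, n = 4 each), a ratio of 1.41 against 2.11 in control mice. JTK_cycle called both (exact p = 0.00568, peak at CT2, for *Pigr* and exact p = 0.00447, peak at CT4, for *Ccl28*), 2 of 7 members, where 14.2% of all genes were called. The cosine in edgeR called the same 2 of 6, where 27.2% of all genes were called. Neither JTK_cycle result passed as a Benjamini-Hochberg q over all genes (0.0876 and 0.0766), though *Pigr* did over all 48 mice (0.0262). The test over times passed for *Tnfsf13b* (adjusted p = 0.00742), 1 of 6 members against 22.6% of all genes, and not for *Pigr* (adjusted p = 0.0795) or *Ccl28* (adjusted p = 0.112, edgeR). *Pigr* passed it over all 48 mice (adjusted p = 0.0243) and without Bmal1 IEC-/- replicate SV402 at CT9 (adjusted p = 0.0335), and *Ccl28* passed it without SV481 at CT17 (adjusted p = 0.0427).

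Whether the rhythm itself differed between genotypes was tested by letting the 24-h cosine and sine terms depend on genotype. No member passed (0 of 6 in edgeR, where 0.94% of all genes did). An unadjusted p under 0.05 was found for 3 of 6, and the share of all genes at that threshold was not computed. The fitted ratio of peak to trough for *Pigr* was 1.43 in controls against 1.19 in Bmal1 IEC-/- mice (adjusted p = 0.34) and 1.92 and 1.39 for *Ccl28* (adjusted p = 0.281). For *Tnfsf13* it was 1.45 and 1.16 (adjusted p = 0.258). A smaller amplitude in Bmal1 IEC-/- mice was therefore not established for any member after adjustment.

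*Igha*, *Jchain* and *Mzb1* were not called rhythmic in either genotype, with JTK_cycle p of 0.829 or more (exact test). The mean of *Igha* in control mice was lowest at CT1, 792 ± 248.7 CPM, and highest at CT21, 1601 ± 580 CPM (SD, n = 4 each), which did not pass the test over times (adjusted p = 0.0629, edgeR). Left out in turn, control replicates SV441 at CT21, SV396 at CT13 and SV469 at CT1 and Bmal1 IEC-/- replicate SV399 at CT17 brought this adjusted p under 0.05, to 0.0213 at the lowest. For *Tnfsf13b* the JTK_cycle p was 1 in controls and 0.0946 in Bmal1 IEC-/- mice. The latter fell under 0.05 without SV479 or SV480 at CT1 or SV439 at CT5, to 0.0368 at the lowest (exact test).

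Between mice of the same genotype and time, the plasma cell genes varied most and varied together. The within-group SD of log2 CPM was 0.46 for *Igha* and 0.47 for *Jchain*, against 0.25 for *Ccl28*, 0.26 for *Tnfsf13*, 0.27 for *Tnfsf13b* and 0.11 for *Pigr*. Deviations from the group means correlated between *Igha* and *Jchain* with a Pearson r of 0.88 and a Spearman rho of 0.88 over 46 mice, and within genotypes the 24 controls gave a Pearson r of 0.92 and the 22 Bmal1 IEC-/- mice 0.83. Without the 2 mice with the most extreme *Igha* values it was 0.84. *Tnfsf13b* correlated with *Jchain* at 0.52 and with *Igha* at 0.45. The epithelial genes correlated with the plasma cell genes more weakly than *Igha* did with *Jchain*. *Pigr* gave 0.33 with *Igha* and 0.28 with *Jchain*, and *Ccl28* gave -0.03 and 0.22. With *Tnfsf13b* the values were 0.27 for *Pigr* and 0.31 for *Ccl28*. *Pigr* and *Ccl28* correlated with each other at 0.19, less than *Pigr* with *Igha*. These correlations are descriptions, and values of 1 mouse share its library and depth.

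**Figure D4:**
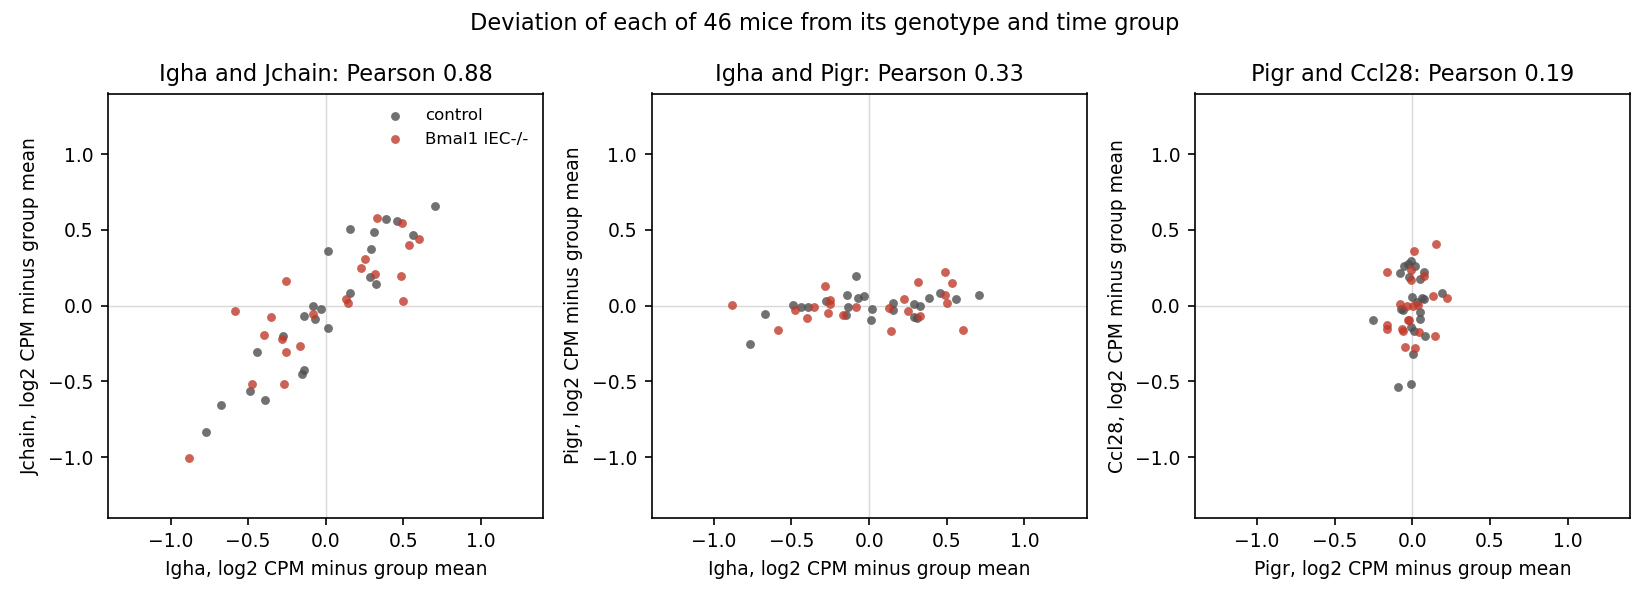
Deviation of each mouse from the mean of its genotype and circadian time in log2 CPM, for *Jchain* against *Igha* (left), *Pigr* against *Igha* (middle) and *Ccl28* against *Pigr* (right). Each point is 1 of 46 mice, control in grey and Bmal1 IEC-/- in red, on the same scale. *Igha* and *Jchain* lie along a line (Pearson r 0.88). *Pigr* covers a narrower range than *Igha* and correlates with it more weakly (Pearson r 0.33).

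Ranked by this Pearson r over 46 mice among 14469 other genes, those most like *Igha* were *Igkc* (0.91), *Pou2af1* (0.70), a transcriptional coactivator of B cells, *Cd79a* (0.68), a chain of the B-cell receptor complex, *Sugp1* (0.66) and *Tent5c* (0.66). Those most like *Pigr* were *Duox2* (0.76), an epithelial oxidase, *Map4* (0.72), *Dmbt1* (0.69), a secreted scavenger receptor of the mucosa, *Apol7c* (0.66) and *Zfp90* (0.64). Those most like *Ccl28* were *Gm45110* (0.76), *Pof1b* (0.73), *Vps13b* (0.70), *Mgam2-ps* (0.70) and *Trim2* (0.69). Of the 5 most like *Pigr*, only *Duox2* differed between genotypes, and it fell, by 0.22 on the log2 scale (adjusted p = 0.0267, edgeR). Of the 5 most like *Ccl28*, *Pof1b* rose by 0.39 (adjusted p = 0.000239) and *Trim2* by 0.25 (adjusted p = 0.000228, edgeR). *Gm45110*, *Vps13b* and *Mgam2-ps* were not called. Over all genes tested, 11.1% were called.

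Among genes that act with the members, calls were counted by list, beside 11.1% called over all genes tested. Of 13 receptors and homing genes for IgA cells, 8 were tested and 0 were called in edgeR or in DESeq2, with 1 at an unadjusted p under 0.05 and a median log2 fold change of -0.06. *Ccr10*, the receptor of CCL28, and the APRIL and BAFF receptors *Tnfrsf17* and *Tnfrsf13c* were among the 5 under the filter. Of 16 plasma cell genes 1 was called, *Txndc5*, a protein disulfide isomerase, which fell by 0.14 (adjusted p = 0.000246, edgeR), and the list's median was 0.00. In control mice *Txndc5* had 652 ± 41.1 CPM (SD, n = 24), a higher level with less spread than the 313 ± 109 CPM of *Jchain*. Which cells of the colon gave the reads of this list was not tested. Of 9 genes tested for IgA switching and its induction 1 was called, *Aldh1a1*, which makes retinoic acid. It fell by 0.70 (SE 0.06, adjusted p = 2.93e-12, edgeR), from 944 ± 191 CPM (SD, n = 24) to 585 ± 98.8 CPM (SD, n = 22).

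Of 19 receptors and factors known to regulate *Pigr*, 2 were called, both higher: *Cdx2*, a homeobox factor of intestinal epithelium, by 0.26 (SE 0.05, adjusted p = 0.000444), and *Ifngr1*, a chain of the interferon-γ receptor, by 0.13 (SE 0.04, adjusted p = 0.0146, edgeR). Over all 48 mice *Il4ra*, a chain of the interleukin-4 receptor, was called as well (adjusted p = 0.0388, edgeR). The E-box factors *Usf1* and *Usf2* were not called. Of 13 genes with a part in the transport of *Pigr* protein through the cell, 1 was called, *Myo5b*, the motor of apical recycling vesicles. It rose by 0.30 (SE 0.05, adjusted p = 1.56e-05, edgeR), from 229 ± 25.6 CPM (SD, n = 24) to 279.8 ± 43.6 CPM (SD, n = 22). The medians of these lists were 0.04 and 0.05, against 0.00 over all genes tested. Of 5 T-cell genes tested none was called in edgeR or DESeq2 (1 at an unadjusted p under 0.05), though all 5 had negative log2 fold changes, with a median of -0.22. Of 8 myeloid genes *Cd14* was higher, by 0.22 (adjusted p = 0.0393, edgeR), and the list's median was -0.07.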

How the data were processed

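The authors deposited read counts per gene for the colon of 48 mice as whole numbers without normalisation. Per the study's methods, TruSeq Stranded mRNA libraries were aligned to mm10 with STAR 2.7.5c, and exon reads of mapping quality of at least 4 that fell on a single feature were counted with featureCounts 1.4.6. Per the submitters' processing notes, FastQC 0.11.5, Trimmomatic 0.39, SAMtools 1.3.1 and DESeq2 1.22.0 were also used. The strand setting and the annotation release are not given in the sources used here. Dropping reads shared by overlapping genes would lower *Tnfsf13* and *Mzb1*. Symbols and positions come from GENCODE vM21, which holds 55141 of the 55401 listed genes.

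Counts were tested with edgeR 4.0.16 (filterByExpr, TMM, quasi-likelihood F test, Benjamini-Hochberg over all 14475 genes kept) in models of genotype and circadian time, of 12 groups, of genotype by period and of genotype by a 24-h cosine. Calls needed an adjusted p under 0.05, and shares of all genes at an unadjusted p were not computed. DESeq2 1.42.0 (R 4.3.3) was an alternative. CPM (edgeR's cpm) used TMM library sizes over 48 mice. JTK_cycle was computed with an own exact implementation (Python 3.11.15, numpy 2.4.6, pandas 2.3.3). The genotype test, the test over times in controls, the change of rhythm and JTK_cycle were tried on simulated data, and the other steps were not. The mice outside the 46 were identified as the pair whose removal gave the size factors of the study's control values to within 1.68e-07, against 0.00132 for the next of 276 Bmal1 IEC-/- pairs. Standard errors of edgeR fits were derived as the absolute log2 fold change divided by the square root of the F statistic. Approximate 95% intervals are the log2 estimate plus and minus a normal quantile of this standard error. Total counts per mouse ran from 3144997 to 4785844, with a median of 3775926 in controls and of 3891600 in Bmal1 IEC-/- mice. No label gives a batch.

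The members, gene lists and tests were chosen with earlier results of these data known. The genes named beside the members are *Arntl* and *Nr1d1*, *Igkc* and *Ighm*, from each list the 3 called genes of either direction with the lowest adjusted p, and the 5 most like *Igha*, *Pigr* and *Ccl28*. *Ccr10*, *Tnfrsf17*, *Tnfrsf13c*, *Il4ra*, *Krt19*, *Usf1* and *Usf2* were named after their values were seen. Alternatives were all 48 mice, other scalings, filters, tests and thresholds, and leaving out each mouse or time.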

Additional observations from a re-analysis of the deposited data

Results flagged for a closer look

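In groups of 4 mice, a value was set aside for a closer look when its gap to the nearest mouse exceeded 0.829 of the group's range (Dixon's 95% critical value), which chance gives in about 5% of groups. Of 77 groups of the 7 members, 4 met this. Bmal1 IEC-/- replicate SV471 at CT21 was high for *Pigr*, with 5099 CPM against 4343 to 4461 CPM in the other 3 mice, and the same mouse was high for *Ccl28*, with 154 CPM against 102.9 to 107.9 CPM. With each mouse left out in turn, *Pigr* kept its call at CT21, with an adjusted p of at most 0.00214 (edgeR). For *Jchain*, control replicate SV396 at CT13 had 393 CPM against 199 to 224 CPM. For *Tnfsf13*, Bmal1 IEC-/- replicate SV445 at CT21 had 9.32 CPM against 6.68 to 7.03 CPM.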

How the results depend on the processing

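The genotype effects on *Pigr* and *Ccl28* kept their direction and an adjusted p under 0.05 under every alternative fit run, with log2 fold changes from 0.43 to 0.51 and from 0.56 to 0.70, and from 0.45 to 0.48 and from 0.60 to 0.66 with each mouse left out. *Pigr*, at 0.47, did not pass with a fold change of 1.5 required as well, which left 1 of 6 members called. Without a filter on low counts 4 were called, adding *Jchain* (0.28) and *Igha* (0.26). With each mouse left out, these 2 ran from 0.24 to 0.31 and from 0.21 to 0.29 and were not called. The direction of genes that were not called turned for *Tnfsf13* without CT17 (0.0325) and for *Tnfsf13b* without CT21 (0.0819) and with the epithelial marker sum as a term (0.0177). With each mouse left out, *Tnfsf13b* ran from -0.0421 to 0.00991, and the interaction of genotype with period for *Jchain* from -0.107 to 0.0600.

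The number of members that differed between times in Bmal1 IEC-/- mice was 1 over 46 mice, 2 over all 48, and 1 to 2 with each mouse left out. A Benjamini-Hochberg q in place of the p adjusted over phases left 0 members rhythmic in Bmal1 IEC-/- mice, where the cosine test in edgeR called 2. The cause of any of these changes was not tested. No paired analysis was possible because replicate numbers are unique to each mouse and are not shared between genotypes.

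Depth limits what can be said of *Mzb1*, *Tnfsf13* and *Tnfsf13b*. The counts come from whole colon, and the protein and the IgA secreted were not measured in these files. Bmal1 IEC-/- values at CT1 rest on 2 mice.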
